A study of Mus musculus with 9 samples.

Results

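The genes described are the nuclear-encoded subunits of oxidative phosphorylation in mouse liver. They were taken from the deposited expression table as every symbol that begins, case-sensitively, with Nduf followed by a, b, c, s or v and a digit, with Uqcr, with Cox and a digit from 4 to 8, or with Atp5, together with Sdha, Sdhb, Sdhc and Sdhd. Names ending in -ps with digits were to be left out, and 0 such names were met. The rule found 86 of the 21470 genes in the table: 41 in complex I, 4 in complex II, 8 in complex III, 16 in complex IV and 17 in complex V, sorted by symbol.

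Liver RNA was sequenced in 9 libraries, 3 each from ligated mice given ligustilide (BDL+LIG), ligated mice without it (BDL) and sham-operated mice (sham). BDL is bile duct ligation, an operation that stops bile flow and leads to cholestatic injury and fibrosis, and ligustilide is a phthalide of Angelica and Ligusticum roots. Both ligated groups carry the same operation, so that BDL+LIG differs from BDL in the compound and from sham in both. The dose is 10 mg/kg in the design text, whereas 20 stands in the titles, and it was not settled here. The sources used here do not give strain, sex, age, the length of ligation or the timing of the compound. Whether the libraries come from separate mice is not labelled, so p-values measure only how far these libraries spread, and that spread may be technical.

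Oxidative phosphorylation takes electrons from NADH at complex I and from succinate at complex II, passes them over ubiquinone, complex III and cytochrome c to complex IV, which reduces oxygen, and uses the proton gradient so made to drive ATP synthesis in complex V. Complexes I, III, IV and V are built from subunits of both genomes. A few core subunits carry the catalysis, and the nuclear supernumerary subunits, most of them small proteins, surround and stabilise them. Hepatocytes are rich in mitochondria, and several supernumerary subunits of complex IV have a second form made mainly in heart, muscle, lung or testis.

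The deposited values are FPKM, fragment counts scaled for transcript length and library depth. Whole fragments recovered from them gave 34815965 to 40780517 fragments per library. Changes are differences of log2(FPKM + 1) with a standard error (SE), from a limma fit over 10142 genes (those at 1 FPKM or more in 3 or more libraries), and a change passed at a Benjamini-Hochberg adjusted p under 0.05. Of the 86 subunit genes, 81 were tested, and Cox4i2, Cox6a2, Cox6b2, Cox8b and Ndufb4c were too low. The median of all tested genes was not at 0: it was 0.16 in BDL against sham, 0.18 in BDL+LIG against BDL and 0.34 in BDL+LIG against sham. Median-of-ratios scaling moved these medians to -0.06, -0.03 and -0.09.

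The libraries of a group were not alike for short genes. Genes under 600 bases lay, in the median, 0.22 below their mean over all libraries in sham replicate 1, against 0.19 and 0.40 above it in sham replicates 2 and 3. The summed FPKM of the subunits was 11055, 12353 and 11531 in the BDL+LIG libraries, 13637, 13134 and 12789 in the BDL libraries and 12980.5, 18283 and 21099 in the sham libraries, so that sham replicate 1 lay within the range of BDL. Subunit genes are short (median length, recovered from the ratio of FPKM to fragments, 772 bases against 3189 over all tested genes), and results are given also without sham replicate 1 and with the length trend of each library removed. That removal also takes out the common offset of each library. The medians of all tested genes were then -0.03 in BDL against sham, -0.01 in BDL+LIG against BDL and -0.05 in BDL+LIG against sham.

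Liver was seen in all groups by its hepatocyte markers (7 genes, among them Alb, Apob and Cps1), which summed to 37257 to 45243 FPKM in BDL+LIG, 30178 to 37271 FPKM in BDL and 49276 to 58054 FPKM in sham. The markers did not fall together. In BDL against sham 1 was lower and 0 higher (6.76% and 22.9% of all tested genes), with changes from -1.93 to 0.32 and a median of -0.06. In BDL+LIG against sham 2 were lower and 2 higher (8.92% and 43.7%), with a median of 0.15. Cholangiocyte markers (8 genes, with Cftr at or near 0 in every library) summed to 219.5 to 458.5 FPKM in BDL+LIG, 408 to 603 FPKM in BDL and 19.4 to 35.6 FPKM in sham. The sum does not speak for each gene: of the 6 tested, 4 had a positive and 2 a negative difference in BDL+LIG against BDL. Their median was 0.16, and 0 passed. Macrophage markers (8 genes) summed to 658 to 1355 FPKM in BDL+LIG, 554.5 to 746 FPKM in BDL and 129 to 275 FPKM in sham. Stellate cell and myofibroblast markers (8 genes) summed to 99.4 to 196.5 FPKM in BDL+LIG, 69.2 to 85.7 FPKM in BDL and 13.9 to 38.7 FPKM in sham, and endothelial markers (6 genes) to 45.6 to 65.5 FPKM in BDL+LIG, 26.5 to 29.0 FPKM in BDL and 19.6 to 23.1 FPKM in sham. All 6 endothelial, 2 of 8 stellate and 1 of 8 macrophage markers were higher in BDL+LIG than in BDL, beside 9.98% of all tested genes. Of the hepatocyte markers, 0 of 7 passed there. Neutrophil markers (6 genes) summed to 15.6 to 39.7 FPKM in BDL+LIG, 42.3 to 46.6 FPKM in BDL and 4.2 to 5.7 FPKM in sham, and red blood cell markers (6 genes) to 173 to 372 FPKM in BDL+LIG, 407 to 496 FPKM in BDL and 190.5 to 309 FPKM in sham. Lower in BDL+LIG than in BDL were 1 of 4 tested neutrophil and 2 of 5 tested red blood cell markers, beside 1.79% of all tested genes. The brown fat markers (4 genes) summed to 1.2 to 2.0 FPKM in BDL+LIG, 1.4 to 2.0 FPKM in BDL and 22.6 to 65.5 FPKM in sham, where Elovl3 gave nearly all of the sum, and Ucp1 and Adipoq were at or near 0 in every library. T and B cell markers (6 genes) summed to at most 7.3 FPKM. Skeletal and heart muscle markers (5 genes) summed to at most 0.3 FPKM. In whole liver, fewer hepatocytes and less subunit RNA per hepatocyte cannot be told apart. The part of these cell types in the results below was not tested.

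The nuclear subunits are known as targets of the factors NRF1, GABPA (NRF2 of mitochondria, an ETS factor) and YY1. Promoters of 69 of the 86 genes were in RefSeq's mouse build GRCm38.p6, each window running from 250 bases before to 50 bases after the start of transcription. Both strands were searched. The NRF1 word, a palindrome of 10 bases seen in capitals in Atp5k below, stood in 7.2% of the 69, against 2.4% of 8175 tested genes with a promoter and 1.1% of all 27025. Its looser form, which leaves the middle pair of bases free and includes the first, stood in 26.1%, against 15.2% and 7.0%. The ETS word CCGGAAG stood in 24.6%, against 21% and 9.9%, and the YY1 word AAGATGGCG in 10.1%, against 3.9% and 1.6%. Of the 43 subunit genes with a promoter that were lower in BDL+LIG than in sham, 4 held the exact NRF1 word, 12 the loose one, 13 the ETS word and 7 the YY1 word, and of the 24 other tested subunit genes with a promoter 1, 6, 4 and 0 did. A match is a description of letters and not a site of binding.

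The 250 bases before the start are shown for 5 genes that the results name, 3 lower and 2 higher in BDL+LIG than in sham, with every match to the 4 words in capitals and written 5′ to 3′ on the strand of the gene. The first is Ndufa5, an arm subunit of complex I (chr6:24527691-24527940, minus strand), with a loose NRF1 word that begins 26 bases before the start. The second is Cox6a1 of complex IV (chr5:115348959-115349208, minus strand), with the exact NRF1 word 162, a loose one 117 and the ETS word, on the other strand, 16 bases before it. The third is Atp5k, subunit e of complex V (chr5:108434400-108434649, minus strand), with the exact NRF1 word 50 bases before it. Cox7a2l (chr17:83514334-83514583, minus strand) and Atp5b (chr10:128083057-128083306, plus strand), the genes that were higher, held 0 matches in these bases. The 5 genes are examples and do not show a link between matches and direction. In the whole windows, 36 subunit genes with a promoter held a match to the 4 words and 33 held none. Those without a match included Ndufb10, Ndufb5, Ndufb3, Ndufa1, Cox7b, Uqcr10 and Cox7a2, all lower in BDL+LIG than in sham.
Ndufa5: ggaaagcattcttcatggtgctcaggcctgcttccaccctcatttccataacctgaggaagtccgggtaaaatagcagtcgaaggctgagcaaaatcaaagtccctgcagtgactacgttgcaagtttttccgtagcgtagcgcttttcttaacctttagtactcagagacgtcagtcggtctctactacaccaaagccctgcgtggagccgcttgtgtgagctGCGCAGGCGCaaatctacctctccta
Cox6a1: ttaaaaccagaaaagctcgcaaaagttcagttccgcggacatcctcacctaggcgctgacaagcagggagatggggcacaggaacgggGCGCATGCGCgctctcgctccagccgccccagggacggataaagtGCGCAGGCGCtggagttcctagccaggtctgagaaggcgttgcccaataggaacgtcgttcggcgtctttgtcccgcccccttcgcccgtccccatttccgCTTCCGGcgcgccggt
Atp5k: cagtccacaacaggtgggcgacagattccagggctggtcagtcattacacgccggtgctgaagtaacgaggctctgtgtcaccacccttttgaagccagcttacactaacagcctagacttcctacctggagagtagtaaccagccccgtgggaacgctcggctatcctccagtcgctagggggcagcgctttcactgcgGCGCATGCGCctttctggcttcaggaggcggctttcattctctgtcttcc
Cox7a2l: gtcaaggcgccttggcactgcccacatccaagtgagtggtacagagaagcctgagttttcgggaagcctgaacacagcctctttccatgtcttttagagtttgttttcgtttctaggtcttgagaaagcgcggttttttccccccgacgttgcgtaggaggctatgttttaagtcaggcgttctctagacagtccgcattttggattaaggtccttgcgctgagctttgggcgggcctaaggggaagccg
Atp5b: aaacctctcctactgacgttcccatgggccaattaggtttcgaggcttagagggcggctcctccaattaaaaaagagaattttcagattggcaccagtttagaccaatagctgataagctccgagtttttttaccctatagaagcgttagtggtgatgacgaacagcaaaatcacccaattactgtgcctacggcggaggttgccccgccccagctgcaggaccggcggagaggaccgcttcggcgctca

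FPKM are divided by a length per gene, so that levels of genes were set side by side, but only roughly. The recovered length lay within 10% of the exon length in GENCODE M21 for 29.9% of 17036 genes. It was 3153 bases for Cox5a and 4137 for Atp5j, beside 2101 and 3130 in GENCODE, and a longer length lowers the FPKM. In sham the most abundant subunit RNA by median library was Cox4i1, with 560, 755 and 787 FPKM, and the core iron-sulfur subunit of complex I that is largest, Ndufs1, was among the lowest of the main subunits, with 22.9, 17.0 and 13.8 FPKM. The median over a complex was lowest for complex I, at 69.7, 76.8 and 73.8 FPKM in BDL+LIG, 87.6, 81.4 and 80.6 FPKM in BDL and 84.7, 119.5 and 121 FPKM in sham. It was highest for complex IV, at 252, 285 and 271 FPKM in BDL+LIG, 342, 323 and 309 FPKM in BDL and 307, 457 and 557 FPKM in sham. In both complexes BDL+LIG lay below BDL, and sham replicate 1 was not above the highest BDL library. In complexes II and V the libraries of BDL+LIG and BDL overlapped. Complex II had 129, 148 and 137 FPKM in BDL+LIG, 131, 122 and 124 FPKM in BDL and 130, 162 and 153 FPKM in sham. Complex V had 158.6, 189.1 and 167.5 FPKM in BDL+LIG, 181.4, 186.0 and 184.1 FPKM in BDL and 213.7, 267.4 and 272.5 FPKM in sham.

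**Figure D1:**
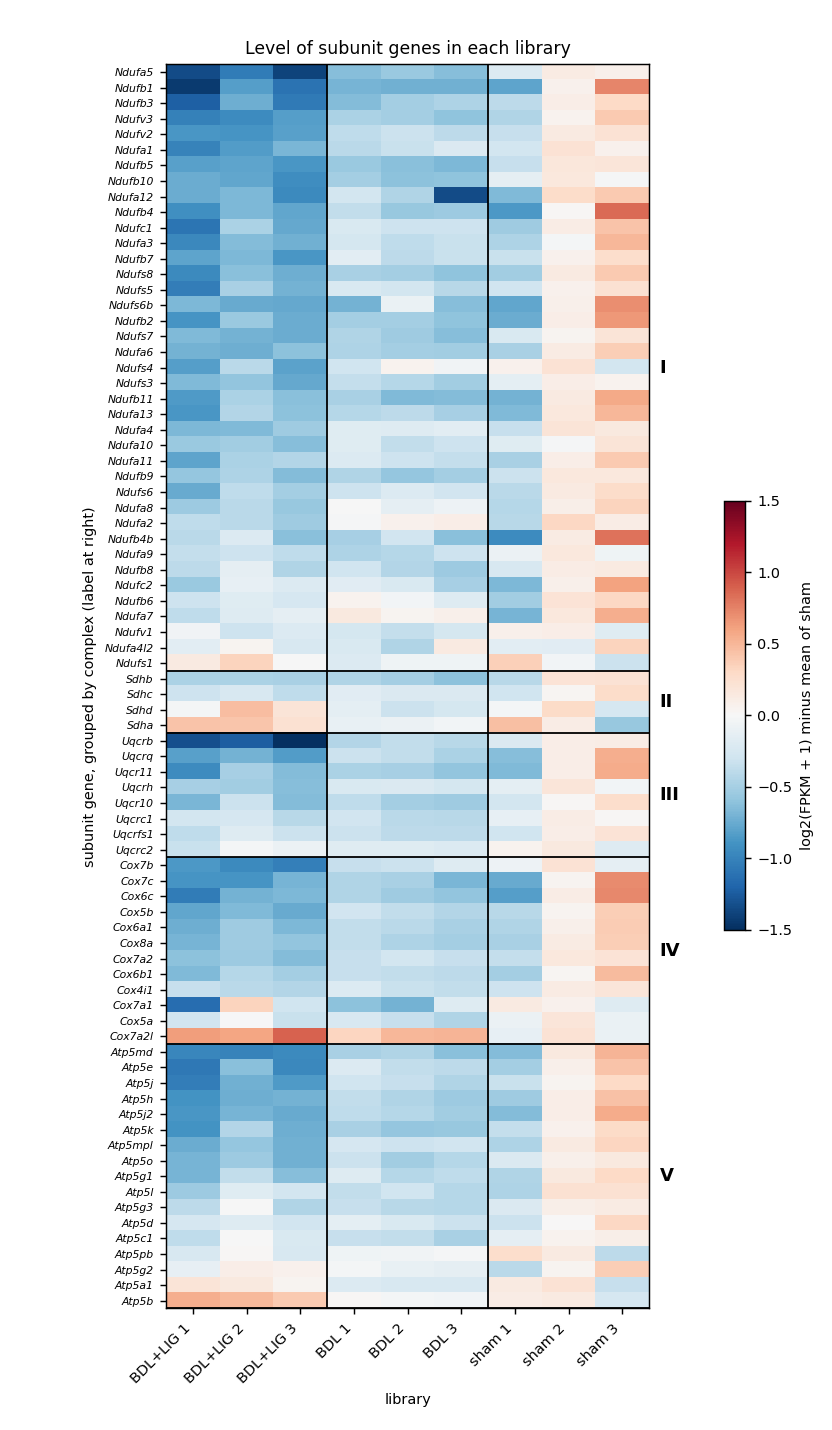
Level of the tested subunit genes in each of the 9 libraries (columns), as log2(FPKM + 1) minus the mean of the 3 sham libraries. The subunit that is not reported here by name is left out. Genes are in rows grouped by complex (I to V at the right) and ordered by the change in BDL+LIG against sham. Most rows are blue in both ligated groups and deepest in BDL+LIG, Cox7a2l and Atp5b are red in BDL+LIG, and sham 1 is bluer than sham 2 and sham 3 over most rows.

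In BDL against sham, 16 of the 81 tested subunits were lower and 1, Cox7a2l, was higher, against 6.76% of all tested genes lower and 22.9% higher (29.7% in either direction). The libraries of the groups did not overlap for 24 lower subunits and 1 higher one, against 11.3% and 33.7% of all tested genes (45% in all). The lower ones were 9 of 40 in complex I, 1 of 4 in complex II, 3 of 8 in complex III, 0 of 12 in complex IV and 3 of 17 in complex V. The difference was negative for 78 of the 81, with a median of -0.37, and the complexes' medians lay between -0.22 in complex II and -0.38 in complex I. Without sham replicate 1, 63 were lower and 1 higher (8.96% and 37.2% of the genes then tested). Without BDL replicate 2, 4 were lower, beside 449 of the 10101 genes then tested, and without sham replicate 2, 4 were, beside 582 of 10089. Without BDL replicate 1 or 3, 5 were lower, beside 482 of 10117 and 453 of 10080 genes. In these fits the share of lower subunits was near that of all genes. With the length trend removed 46 were lower and 0 higher (15.2% and 16% of all tested genes), of which 23 were in complex I, 1 in complex II, 6 in complex III, 7 in complex IV and 9 in complex V. The removal also recentres each library, and the parts of length and of recentring in these counts were not tested.

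In complex I, the lower subunits included Ndufs3 and Ndufs7 of the core and Ndufa5, Ndufa9, Ndufb3, Ndufb5, Ndufb8, Ndufb9 and Ndufb10 of the supernumerary ones. Ndufb10, a membrane arm subunit, had 171, 159.7 and 160.5 FPKM in BDL, against 223, 273 and 242 FPKM in sham, and changed by -0.58 ± 0.12 (adjusted p = 0.00453). Every BDL library lay below every sham library. Ndufb5, another membrane arm subunit, had 60.6, 57.6 and 55.6 FPKM in BDL, against 70.4, 100.6 and 102 FPKM in sham (-0.62 ± 0.14, adjusted p = 0.00867). Ndufs7 binds the last iron-sulfur cluster before ubiquinone, and it had 53.5, 50.3 and 46.6 FPKM in BDL, against 62.3, 75.5 and 83.7 FPKM in sham (-0.54 ± 0.13, adjusted p = 0.00885). Ndufs3, next to it in the core, had 104, 98.6 and 92.4 FPKM in BDL and 120.3, 143 and 138 FPKM in sham (-0.44 ± 0.11, adjusted p = 0.0152). Ndufa5 changed by -0.61 ± 0.13 (adjusted p = 0.00618) and Ndufb3 by -0.54 ± 0.18 (adjusted p = 0.0472). The call of Ndufa5 was lost in 0 of the 22 alternatives and that of Ndufb3 in 10 (adjusted p = 0.0501 to 0.14), among them the fits without any one BDL library, without BDL+LIG replicate 3 and without sham replicate 2 or 3. Ndufs3 lost its call without BDL replicate 2 or 3 and without sham replicate 2 (adjusted p up to 0.0785). The other 5 core subunits did not pass, though with the length trend removed all 7 were lower. Ndufv1, which holds the flavin that takes electrons from NADH, changed by -0.30 ± 0.12 (adjusted p = 0.0894), and Ndufs1 by -0.11 ± 0.17 (adjusted p = 0.666).

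In complex II, Sdhb, the iron-sulfur subunit, had 160.4, 154 and 143 FPKM in BDL, against 164, 253 and 254 FPKM in sham (-0.52 ± 0.17, adjusted p = 0.0363). The groups did not overlap, but sham replicate 1 stood close to the highest BDL library. The call was lost in 8 of 22 alternatives, among them the fits without any one BDL library, without BDL+LIG replicate 3 and without sham replicate 2 or 3 (adjusted p = 0.0553 to 0.131). Sdha, the flavoprotein that oxidises succinate, averaged 81.9 ± 2.07 FPKM in BDL and 90.4 ± 30.7 FPKM in sham (SD, n = 3 each), and its change of -0.08 ± 0.21 did not pass (adjusted p = 0.806). The membrane anchors Sdhc and Sdhd changed by -0.21 ± 0.14 and -0.24 ± 0.17 and did not pass (adjusted p = 0.316 and 0.304).

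In complex III, Uqcrc1, one of the large matrix-facing core proteins, had 112, 103 and 102 FPKM in BDL, against 125, 147 and 138 FPKM in sham (-0.37 ± 0.11, adjusted p = 0.0295). Uqcrb, a small subunit that binds near the ubiquinone site, had 219.8, 232 and 224 FPKM in BDL, against 258, 321 and 323 FPKM in sham (-0.41 ± 0.13, adjusted p = 0.0353). Uqcr10 changed by -0.47 ± 0.16 (adjusted p = 0.0482). For all 3 genes the BDL libraries lay below those of sham. The call was lost in 5 of the 22 alternatives for Uqcrc1, 9 for Uqcrb and 11 for Uqcr10 (adjusted p up to 0.119, 0.112 and 0.151). For each of them these included the fits without any one BDL library and without sham replicate 2. Uqcrb and Uqcr10 lost it also without sham replicate 3, and Uqcr10 without BDL+LIG replicate 1 or 3 and with the replicate block (adjusted p = 0.0645). Uqcrc2 and Uqcrfs1, the Rieske iron-sulfur protein, changed by -0.19 ± 0.13 and -0.37 ± 0.14 and did not pass (adjusted p = 0.288 and 0.071).

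In complex V, the lower genes were Atp5c1, Atp5o and Atp5k. Atp5c1, the gamma subunit that turns inside the catalytic head, had 119.9, 118 and 109 FPKM in BDL, against 139, 159 and 163 FPKM in sham (-0.40 ± 0.13, adjusted p = 0.0354). Atp5o, which links head and stalk, changed by -0.43 ± 0.13 (adjusted p = 0.0316), and Atp5k by -0.54 ± 0.17 (adjusted p = 0.0392). The call was lost in 8 of the 22 alternatives for Atp5c1, 7 for Atp5o and 7 for Atp5k (adjusted p up to 0.139, 0.137 and 0.118), and for all 3 genes these included the fits without any one BDL library and without sham replicate 2 or 3. Atp5c1 and Atp5k lost it also without BDL+LIG replicate 3, and Atp5o with the replicate block (adjusted p = 0.0528). Atp5b, the catalytic beta subunit, averaged 392 ± 8.57 FPKM in BDL and 400.3 ± 58.6 FPKM in sham (SD, n = 3 each), and the difference of -0.02 ± 0.14 did not pass (adjusted p = 0.929). Atp5a1, its alpha partner, changed by -0.23 ± 0.15 (adjusted p = 0.291).

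In complex IV, 11 of the 12 tested genes had a negative difference and 0 of these passed the limma test. An unadjusted limma p under 0.05 was met by 4 complex IV genes, Cox7a2l among them, and by 4112 of all 10142 tested genes. Cox4i1, the first of the nuclear subunits to join the core, changed by -0.30 ± 0.15 (adjusted p = 0.158), Cox5a by -0.35 ± 0.13 (adjusted p = 0.0704), Cox5b by -0.37 ± 0.18 (adjusted p = 0.153) and Cox6c by -0.53 ± 0.31 (adjusted p = 0.228). Cox7a2l, a Cox7a relative known to tie complexes III and IV into supercomplexes, went the other way, with 71.1, 80.4 and 81.1 FPKM in BDL, against 52.0, 66.0 and 52.8 FPKM in sham (0.45 ± 0.13, adjusted p = 0.0291). All BDL libraries lay above all sham libraries. With the length trend removed, 7 complex IV genes were lower, among them Cox4i1, Cox5a and Cox5b (adjusted p = 0.0404, 0.0119 and 0.0258). The change of Cox7a2l was then 0.32 and did not pass (adjusted p = 0.0824), and with median-of-ratios scaling it was 0.16 (adjusted p = 0.564). It passed in 15 of the 22 alternatives run and failed without BDL replicate 2 or 3 and without sham replicate 3 (adjusted p = 0.109, 0.112 and 0.0706).

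**Figure D2:**
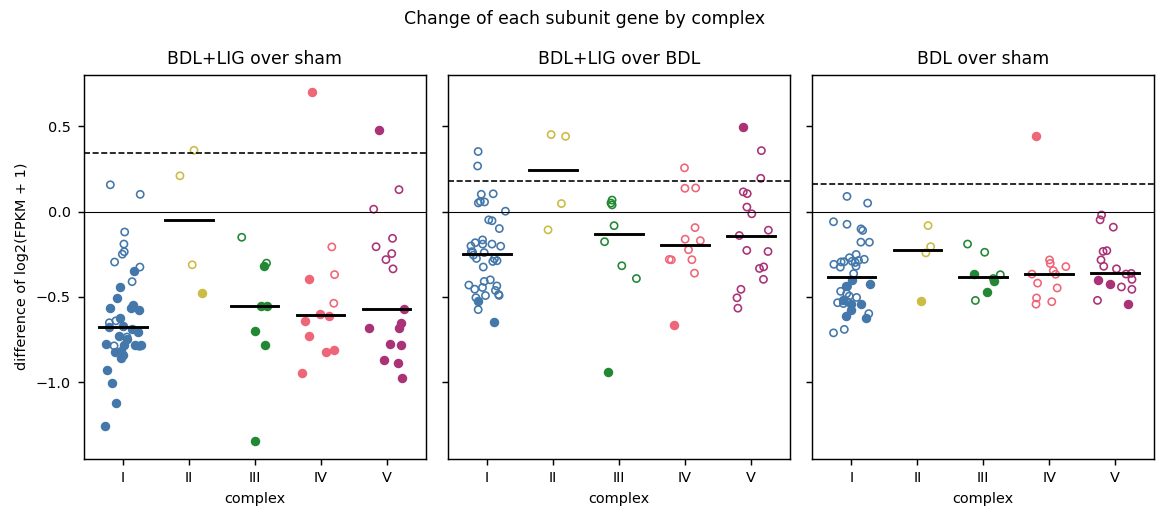
Difference of log2(FPKM + 1) of each tested subunit gene (points) by complex, in BDL+LIG against sham, BDL+LIG against BDL and BDL against sham. Filled points passed the limma test, open points did not, short bars are the medians of the complexes and the dashed line is the median of all 10142 tested genes, which lies above every complex median except that of complex II in BDL+LIG against BDL.

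In BDL+LIG against BDL, 4 subunits were lower (Uqcrb, Cox7b, Ndufa5 and Ndufa1) and 1 was higher (Atp5b), against 1.79% of all tested genes lower and 9.98% higher (11.8% in either direction). The difference was negative for 58 of the 81, with a median of -0.20. The median was positive in complex II, at 0.25, and negative in the other 4, from -0.25 in complex I to -0.13 in complex III. With median-of-ratios scaling 4 were lower and 0 higher, beside 355 and 275 of all 10142 tested genes. After rescaling to TPM (each library rescaled to a common sum) 3 were lower and 3 higher, beside 98 and 1828 of all tested genes. With the length trend removed 1, Uqcrb, was lower and 0 were higher (2.5% and 2.41% of all tested genes), and the median was -0.02. Without BDL replicate 2, 0 subunits passed in either direction, and neither did any of 10101 genes tested by limma (2310 had an unadjusted p under 0.05). Without sham replicate 1, 23 were lower and 2 higher (5.15% and 26.1% of the genes then tested), and without sham replicate 3, 8 were lower and 4 higher (beside 283 and 1482 of the 10080 genes then tested).

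Uqcrb had 119.5, 126 and 106 FPKM in BDL+LIG, against 219.8, 232 and 224 FPKM in BDL and 258, 321 and 323 FPKM in sham. The 3 groups did not overlap. It changed by -0.94 ± 0.13 in BDL+LIG against BDL (adjusted p = 0.00728), a level 0.522 times that in BDL, and by -0.65 ± 0.12 with the length trend removed (adjusted p = 0.0218). It failed in 1 of 22 alternatives, the fit without BDL replicate 2 (adjusted p = 0.0558).

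Ndufa5 had 44.7, 55.2 and 43.4 FPKM in BDL+LIG, against 73.6, 78.0 and 73.4 FPKM in BDL and 99.6, 126 and 122 FPKM in sham, again with 3 groups that did not overlap. It changed by -0.65 ± 0.13 (adjusted p = 0.0192) and by -0.36 with the length trend removed (adjusted p = 0.0966). It did not pass without BDL+LIG replicate 1 or 3 or without any one BDL library (adjusted p = 0.0521 to 0.0926). Cox7b, a small complex IV subunit, had 113, 106 and 101 FPKM in BDL+LIG and 163, 166 and 181 FPKM in BDL. In sham Cox7b had 196, 239.9 and 187 FPKM, and its 3 groups did not overlap. It changed by -0.66 ± 0.12 (adjusted p = 0.0146) and by -0.53 with the length trend removed (adjusted p = 0.0628), and it did not pass without BDL+LIG replicate 2 or 3 or without any one BDL library (adjusted p = 0.0531 to 0.0741). Ndufa1, an X-linked subunit at the joint of the arms of complex I, had 65.0, 73.1 and 81.3 FPKM in BDL+LIG, against 99.0, 104 and 113 FPKM in BDL and 109, 152 and 137 FPKM in sham. It changed by -0.52 ± 0.14 (adjusted p = 0.0442) and by -0.22 with the length trend removed (adjusted p = 0.269). It did not pass without any one library of BDL+LIG or BDL (adjusted p = 0.0792 to 0.135).

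Atp5b was the subunit that rose. It had 582, 558 and 522 FPKM in BDL+LIG, against 402, 389 and 385 FPKM in BDL and 430.3, 438 and 333 FPKM in sham. Every BDL+LIG library lay above every library of both other groups. The change was 0.50 ± 0.14 (adjusted p = 0.0432), or 0.32 above the median of all genes, and it did not pass with the length trend removed (0.43, adjusted p = 0.0961) or with median-of-ratios scaling (0.23, adjusted p = 0.425). It passed in 9 of 22 alternatives and failed in the fits without any one library of BDL+LIG or BDL and without sham replicate 2 (adjusted p = 0.051 to 0.146).

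Other subunits had values that did not pass. Sdha had 117, 116 and 102 FPKM in BDL+LIG, against 80.0, 81.6 and 84.1 FPKM in BDL and 119, 94.0 and 58.1 FPKM in sham (0.44 ± 0.21 in BDL+LIG against BDL, adjusted p = 0.182). Sdhd had 127, 179.7 and 149 FPKM in BDL+LIG, against 117, 104 and 108 FPKM in BDL and 128, 158 and 108 FPKM in sham (0.45 ± 0.17, adjusted p = 0.0928). In both genes the BDL+LIG libraries lay above those of BDL without overlap, as they did in 7 subunits in all, and in 44 subunits they lay below without overlap (40.7% and 10.5% of all tested genes, 51.2% in all). Atp5a1 changed by 0.36 ± 0.15 (adjusted p = 0.137) and Ndufv2, the partner of Ndufv1, by -0.49 ± 0.14 (adjusted p = 0.0516).

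**Figure D3:**
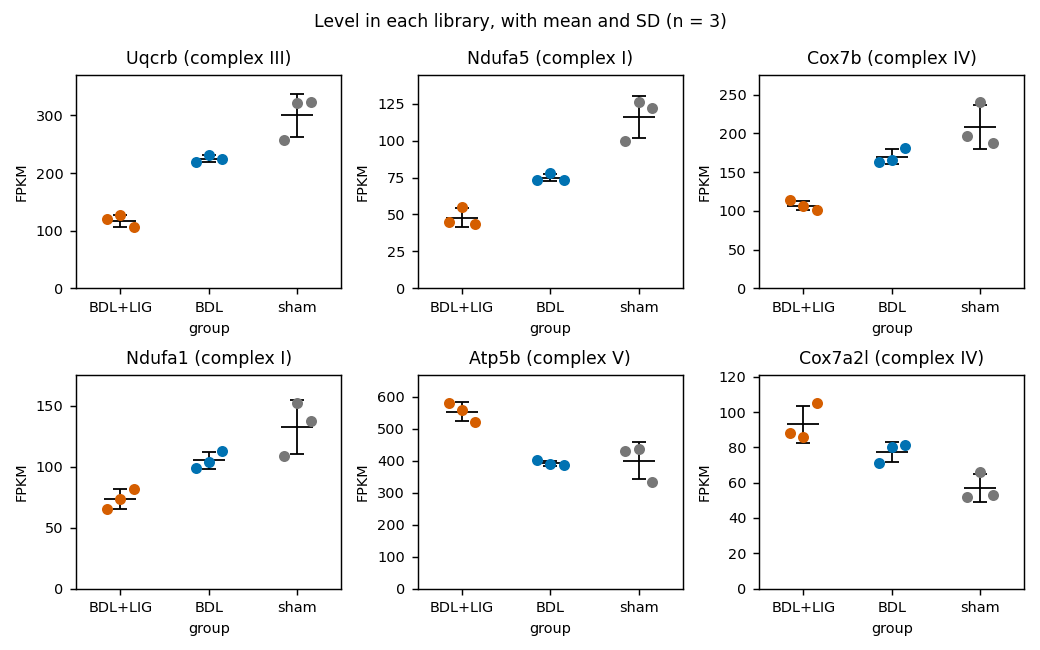
FPKM of the 5 subunits that passed in BDL+LIG against BDL and of Cox7a2l in each library (points) of BDL+LIG, BDL and sham, with the mean (horizontal mark) and SD (bar, n = 3) of each group and axes from 0. Uqcrb, Ndufa5, Cox7b and Cox7a2l separate all 3 groups, with Cox7a2l lowest in sham, and Atp5b is higher in BDL+LIG alone.

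In BDL+LIG against sham, 50 subunits were lower and 2, Cox7a2l and Atp5b, were higher, against 8.92% of all tested genes lower and 43.7% higher (52.6% in either direction). The libraries did not overlap for 41 lower and 2 higher subunits, against 9.71% and 45.7% of all tested genes (55.4% in all). The lower ones were 26 of 40 in complex I (4 of the 7 core and 22 of the 30 supernumerary genes), 1 of 4 in complex II, 6 of 8 in complex III, 8 of 12 in complex IV and 9 of 17 in complex V. The median difference was -0.61 over the 81, from -0.05 in complex II to -0.68 in complex I. Without sham replicate 1, 66 were lower and 4 higher (11.8% and 56.6% of the genes then tested), and without sham replicate 2, BDL+LIG replicate 1 or BDL+LIG replicate 3 the lower ones were 32, 33 and 33. In the same order, 749 of 10089, 699 of 9925 and 708 of 9918 tested genes were lower. With the length trend removed 55 were lower and 1 higher (22.9% and 22.1%), the lower ones being 31 in complex I, 2 in complex II, 5 in complex III, 6 in complex IV and 11 in complex V. The comparisons share libraries: 14 of the 16 subunits lower in BDL than in sham were among the 50, Uqcrb and Ndufa5 were lower in all 3 comparisons, and 27 passed in none.

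The largest falls were in Uqcrb (-1.35 ± 0.13, adjusted p = 2.78e-05), Ndufa5 (-1.26 ± 0.13, adjusted p = 4.99e-05), Ndufb1, Ndufb3 and Atp5md. Ndufb1, the shortest complex I gene here (339 bases), had 70.6, 108 and 88.8 FPKM in BDL+LIG, against 110.2, 201 and 319.5 FPKM in sham (-1.12 ± 0.31, adjusted p = 0.0119), and sham replicate 1 stood close to the highest BDL+LIG library. Ndufb3, a membrane arm subunit, had 35.5, 49.98 and 39.8 FPKM in BDL+LIG, against 63.8, 89.7 and 103 FPKM in sham (-1.01 ± 0.18, adjusted p = 0.00123). Atp5md, a small membrane subunit of complex V, had 185, 182 and 187 FPKM in BDL+LIG, against 231, 404 and 518 FPKM in sham (-0.98 ± 0.24, adjusted p = 0.00626). In each of these genes the groups did not overlap. Ndufb10 changed by -0.82 ± 0.12 (adjusted p = 0.000313).

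In complex IV 8 subunits were lower, and 6 with the length trend removed. Cox7b changed by -0.95 ± 0.12 (adjusted p = 0.000177), Cox5b by -0.73 ± 0.18 (adjusted p = 0.00654) and Cox7a2 by -0.60 ± 0.15 (adjusted p = 0.00686). Cox6a1, whose promoter is shown above, changed by -0.64 ± 0.19 (adjusted p = 0.0163). Cox5b, which binds zinc on the matrix side, had 247, 268 and 251 FPKM in BDL+LIG, against 317, 436 and 549 FPKM in sham. Cox4i1 and Cox6c passed too (-0.40 ± 0.15, adjusted p = 0.0464, and -0.81 ± 0.31, adjusted p = 0.0473), but in 15 and 16 of the 22 alternatives they did not. Cox5a did not pass (-0.21 ± 0.13, adjusted p = 0.203). In complex III, Uqcrh, the acidic hinge protein at cytochrome c1, changed by -0.56 ± 0.12 (adjusted p = 0.00327) and Uqcr10 by -0.55 ± 0.16 (adjusted p = 0.0145). The call was lost in 2 of the 22 alternatives for Uqcrh, 4 for Uqcr10 and 2 for Cox6a1.

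In complex I, the core subunits Ndufs3, Ndufs7, Ndufs8 and Ndufv2 were lower, with Ndufs3 at -0.67 ± 0.11 (adjusted p = 0.000766), whereas Ndufs1 (0.16 ± 0.17) and Ndufv1 (-0.19 ± 0.12) did not pass (adjusted p = 0.456 and 0.203). In complex V, 7 of the 9 stalk and membrane genes were lower, among them Atp5j (-0.87 ± 0.16, adjusted p = 0.00126) and Atp5o (-0.65 ± 0.13, adjusted p = 0.00203). Of the 5 genes of the catalytic head, Atp5e was lower and Atp5b higher, and Atp5a1 (0.13 ± 0.15), Atp5c1 (-0.21 ± 0.13) and Atp5d did not pass. Of the c-ring genes, which make 1 identical mature protein, Atp5g1 was lower and Atp5g2 and Atp5g3 did not pass. The libraries of Atp5g1 overlapped between the groups. Its call was lost in 7 of the 22 alternatives (adjusted p = 0.0625 to 0.0929), among them the fits without BDL+LIG replicate 1 or 3 and without sham replicate 2 or 3. In complex II, Sdhb was lower (-0.48 ± 0.17, adjusted p = 0.0326), with 157.4, 158 and 156.8 FPKM in BDL+LIG, against 164, 253 and 254 FPKM in sham, and Sdha did not pass (0.36 ± 0.21, adjusted p = 0.178). The call of Sdhb was lost in 10 of the 22 alternatives (adjusted p = 0.0527 to 0.147), among them the fits without any one BDL+LIG library, without BDL replicate 2 and without sham replicate 2 or 3. With the length trend removed Ndufs1 and Ndufv1 were also lower (adjusted p = 0.0479 and 0.0476), as were Atp5c1, Atp5d and Atp5g3 (adjusted p = 0.0106, 0.0246 and 0.0327), so that 3 of the 5 genes of the catalytic head were lower and 0 higher.

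Atp5b and Cox7a2l rose in BDL+LIG against sham by 0.48 ± 0.14 (adjusted p = 0.0135) and 0.70 ± 0.13 (adjusted p = 0.00155), which is 0.13 and 0.36 above the median of all genes. Cox7a2l had 88.0, 85.9 and 105.4 FPKM in BDL+LIG, the highest of the 3 groups, and no overlap with BDL or sham. Its change was 0.68 with the length trend removed (adjusted p = 0.00213) and 0.15 with median-of-ratios scaling (adjusted p = 0.531). Atp5b was at 0.23 with the length trend removed (adjusted p = 0.211) and its sign turned with median-of-ratios scaling (-0.08, adjusted p = 0.725).

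**Figure D4:**
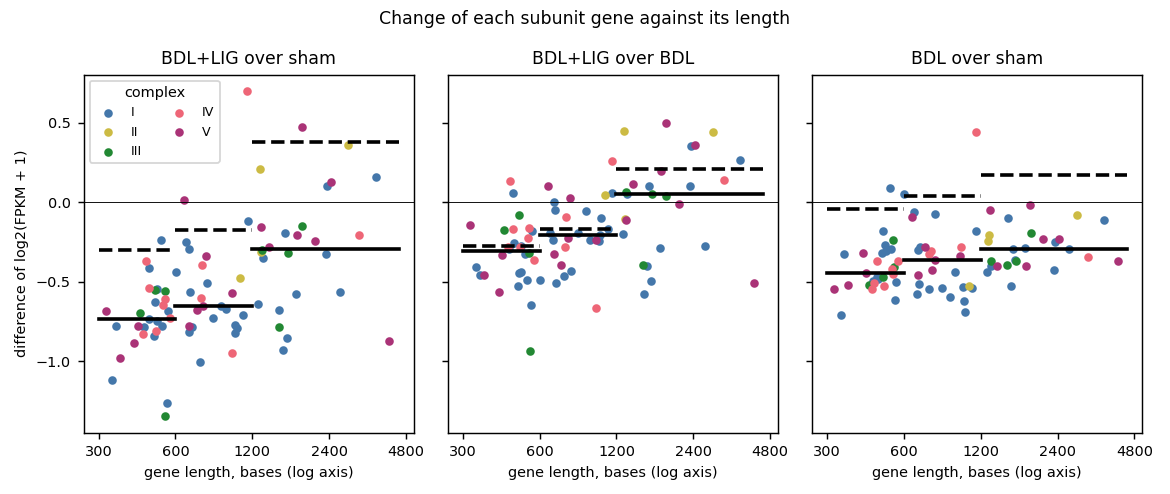
Difference of log2(FPKM + 1) of each tested subunit gene against its length in bases (log axis), coloured by complex, in the 3 comparisons. Solid bars are the medians of the subunits and dashed bars those of all tested genes under 600 bases, from 600 to 1200 bases and above: in BDL+LIG against BDL the bars nearly meet below 1200 bases, and in the comparisons with sham the solid bars lie lower in every class.

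Short subunits had the more negative differences. Spearman's rho between length and change was 0.44 over the 81 subunits and 0.48 over all 10142 tested genes in BDL+LIG against BDL, 0.47 and 0.29 in BDL+LIG against sham, and 0.33 and 0.05 in BDL against sham. These are descriptions across genes of the same libraries, and genes are not independent replicates. In BDL+LIG against BDL the 28 subunits under 600 bases had a median of -0.31 and all genes of that length -0.28, and the 27 subunits of 600 to 1200 bases -0.20 against -0.17. The 26 subunits over 1200 bases had 0.05 against 0.21. In BDL against sham the same classes gave -0.45, -0.36 and -0.29 for the subunits, against -0.04, 0.04 and 0.17 for all genes. In BDL+LIG against sham they gave -0.73, -0.65 and -0.29, against -0.30, -0.18 and 0.38.

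Of the calls, all 16 lower subunits of BDL against sham passed also with the length trend removed, as did 42 of the 50 lower ones of BDL+LIG against sham, but 1 of the 4 of BDL+LIG against BDL. This setting also recentred each library, which made the changes against sham more negative for genes as a whole. Of the higher ones, Cox7a2l in BDL+LIG against sham was the single call that passed both ways.

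Levels relative to other subunits of the same library do not depend on a scaling factor of the library, but a trend with length does not cancel in them. Uqcrb stood at 0.679, 0.664 and 0.61 of the median of the other 7 complex III genes in BDL+LIG, against 1.00, 1.16 and 1.14 in BDL and 1.29, 1.12 and 1.02 in sham. BDL+LIG lay apart from both other groups, and BDL and sham overlapped. Ndufa5 stood at 0.634, 0.713 and 0.574 of the median of the other 39 complex I genes in BDL+LIG, 0.821, 0.924 and 0.902 in BDL and 1.19, 1.11 and 1.01 in sham, with no overlap between groups. Atp5b stood at 3.68, 2.96 and 3.12 times the median of the other 16 complex V genes in BDL+LIG, against 2.22, 2.13 and 2.16 in BDL and 2.09, 1.64 and 1.29 in sham. Cox7b, against the other 11 complex IV genes, stood at 0.44, 0.351 and 0.347 in BDL+LIG. It stood at 0.47, 0.506 and 0.581 in BDL and 0.628, 0.502 and 0.331 in sham, so BDL+LIG overlapped sham. Ndufa1, against the other 39 complex I genes, stood at 0.92, 0.944 and 1.13 in BDL+LIG. It stood at 1.157, 1.326 and 1.413 in BDL and 1.296, 1.347 and 1.135 in sham, which nearly met BDL+LIG. An exact permutation test of 3 against 3 libraries cannot give a two-sided p below 0.1, and these genes were chosen for their change, so no p is given.

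**Figure D5:**
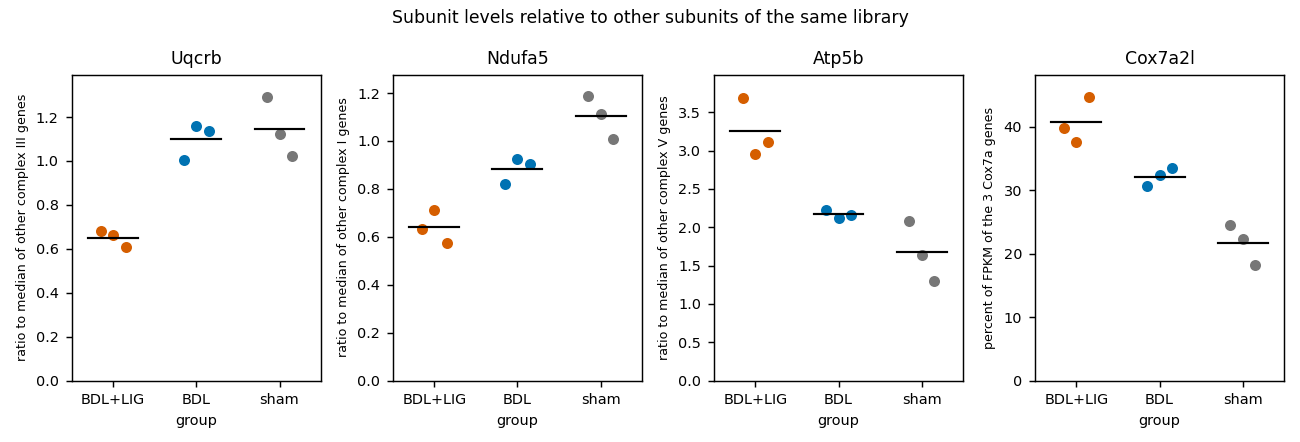
Levels relative to other subunits of the same library (points), with the group mean (line), in BDL+LIG, BDL and sham: Uqcrb, Ndufa5 and Atp5b as ratios to the median of the other tested genes of their complex, and Cox7a2l as a percent of the FPKM of the Cox7a family. Uqcrb is low in BDL+LIG alone, Ndufa5 is lowest in BDL+LIG and highest in sham, and Atp5b and Cox7a2l are highest in BDL+LIG.

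The paralogs that mark other tissues were near the floor. Cox4i2, a form of lung and oxygen-sensing cells, held 57 fragments over all 9 libraries and at most 0.126% of the Cox4i FPKM in a library. Cox6a2 and Cox8b, forms of heart and skeletal muscle, held 28 and 11 fragments in all, and Cox6b2, a form of testis, held 147. Cox7a1, the form of heart and muscle, lay between 0.65 and 3.58 FPKM and held at most 1.57% of the FPKM of Cox7a1, Cox7a2 and Cox7a2l. Ndufa4l2 was at most 0.529% of the sum of Ndufa4 and Ndufa4l2, Ndufb4b at most 1.28% of the Ndufb4 genes and Ndufs6b at most 10.7% of Ndufs6 and Ndufs6b. The sources used here do not say how fragments shared with near-identical copies were counted, so the values of these small paralogs are uncertain.

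Within the Cox7a family the share of Cox7a2l was 39.9%, 37.6% and 44.6% in BDL+LIG, 30.6%, 32.3% and 33.5% in BDL and 24.4%, 22.4% and 18.3% in sham, with no overlap between groups. Cox7a2, the form of liver, made up nearly all of the rest, with 59.8%, 60.8% and 54.6% in BDL+LIG, 68.8%, 67.2% and 65.6% in BDL and 74.2%, 76.7% and 81% in sham. The genes differ in length (1149 bases for Cox7a2l and 754 bases for Cox7a2), and the part of length in this shift was not tested. The shares of the c-ring genes were more even: Atp5g1 held 21.7%, 21.9% and 21.6% in BDL+LIG, 27.1%, 25.2% and 26% in BDL and 25.1%, 28.2% and 28.1% in sham.

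Other genes of the pathway were counted from lists. Of all tested genes, 22.9% were higher and 6.76% lower in BDL against sham, 9.98% and 1.79% in BDL+LIG against BDL, and 43.7% and 8.92% in BDL+LIG against sham, and medians of the lists stand against 0.16, 0.18 and 0.34 for all genes in the same order. The 13 mitochondrially encoded subunits had 3 lower and 0 higher in BDL against sham, 1 lower (ATP6, -1.62, adjusted p = 0.0144) and 0 higher in BDL+LIG against BDL, and 12 lower and 0 higher in BDL+LIG against sham, with medians of -0.61, -0.51 and -1.36. ND3 and ND2 of complex I changed by -0.98 and -0.86 in BDL against sham (adjusted p = 0.0143 and 0.0388). They summed to 28712 to 42744 FPKM in BDL+LIG, 45527 to 54454 FPKM in BDL and 62910 to 106520 FPKM in sham, and since FPKM share a total, a common total without these genes was among the alternatives.

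Assembly factors build the complexes without staying in them. Those of complex I (17 tested) had 2 higher and 2 lower in BDL against sham, 1 and 0 in BDL+LIG against BDL, and 3 and 6 in BDL+LIG against sham (medians -0.06, -0.14 and -0.20). Ecsit, a complex I assembly factor, fell by 0.60 in BDL against sham (adjusted p = 0.00517), whereas Nubpl, which delivers iron-sulfur clusters to complex I, rose in all 3 comparisons, by 0.60, 0.65 and 1.24 (adjusted p = 0.0165, 0.0303 and 0.000146). Those of complex IV (26 tested) had 0 higher and 0 lower, 0 and 2 (Cox20, -0.91, and Cmc1, -0.62, adjusted p = 0.00706 and 0.0252), and 2 and 5 (medians -0.03, -0.14 and -0.09). Those of complexes II, III and V (4, 5 and 5 tested) had 1 higher and 1 lower in BDL against sham, 0 and 1 in BDL+LIG against BDL, and 3 and 5 in BDL+LIG against sham, with medians of 0.07, -0.32 and -0.25 in complex II, -0.15, -0.14 and -0.34 in complex III and -0.01, 0.09 and -0.10 in complex V. The 16 electron carriers and ubiquinone enzymes had 0 and 3, 1 and 0, and 1 and 2 (medians -0.18, 0.09 and 0.03). Among them Cyc1, the nuclear cytochrome c1 of complex III that the rule for symbols does not match, had 96.3, 118 and 93.6 FPKM in BDL+LIG, 96.4, 84.6 and 82.8 FPKM in BDL and 102, 134 and 138 FPKM in sham (-0.49 ± 0.15 in BDL against sham, adjusted p = 0.0308).

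The regulators of mitochondrial biogenesis (17 tested) had 1 higher and 2 lower in BDL against sham, 3 and 0 in BDL+LIG against BDL, and 3 and 1 in BDL+LIG against sham (medians -0.04, 0.27 and 0.33). Ppara, the receptor that drives fatty acid oxidation, fell by 1.04 in BDL against sham and rose by 0.78 in BDL+LIG against BDL (adjusted p = 0.00557 and 0.0458). Ppargc1a, the coactivator PGC-1alpha, was below the filter in FPKM, with 0.919, 0.802 and 0.913 FPKM in BDL+LIG, 0.403, 0.297 and 0.452 FPKM in BDL and 0.545, 0.193 and 0.138 FPKM in sham, and the gene of NRF1 lay below it as well. Gabpa and Yy1 did not pass in any comparison. The citrate cycle (17 tested) had 3 higher and 1 lower, 1 and 0, and 4 and 0 (medians 0.07, 0.06 and 0.09), and glycolysis (16 tested) 2 and 2, 2 and 0, and 9 and 0 (medians 0.27, 0.31 and 0.43). Idh2, the NADP-linked isocitrate dehydrogenase of mitochondria, rose by 1.00 in BDL against sham, and Pkm, the pyruvate kinase of non-hepatocyte cells, by 1.49 (adjusted p = 0.00047 and 0.00221). The 27 other mitochondrial proteins had 3 and 1, 3 and 0, and 9 and 4 (medians 0.08, 0.13 and 0.27), with Slc25a4, an ADP/ATP carrier, 2.03 higher and Cpt2, a carnitine palmitoyltransferase, 0.72 lower in BDL against sham (adjusted p = 5.91e-05 and 0.00109).

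Annotation limits some of these values. In GENCODE M21 (GRCm38), 28 of the 82 subunit genes found share exonic bases with another gene, among them Uqcrb with Gm10767, Ndufs3 with Kbtbd4, Ndufb5 with Mrpl47 and Atp5j with Gabpa, all on the opposite strand. The sources used here do not say whether counting used strand, so reads of such pairs cannot be told apart.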

How the data were processed

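Mouse liver RNA for 9 libraries (3 each of BDL+LIG, BDL and sham) was isolated with TRIzol and measured on a NanoDrop 2000, and the VAHTS Universal V6 kit gave the libraries, per the labels' protocols. Fastp, HISAT2 2.1.0, DESeq2 and the build GRCm39 are named per the submitters' processing notes, with no role given. The authors deposited FPKM per gene and library. Whole fragments and gene lengths were recovered from these FPKM for 19449 of 19449 genes above 0 in at least 2 libraries, with a tolerance of 0.02 fragments. On simulated data 99.76% of 19145 genes were recovered exactly. PCR reads without molecular identifiers are not independent molecules.

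FPKM were tested as log2(FPKM + 1), which understates changes of low genes, in 1 limma 3.58.1 fit of all 9 libraries (R 4.3.3, variance trend on), for the 10142 genes at 1 FPKM or more in 3 or more libraries. Benjamini-Hochberg adjustment ran over all of them, with a threshold of 0.05. Lengths were used to remove a loess trend (span 0.4) per library. The fitted curve was subtracted with its level, so that each library was also recentred. Alternatives were pseudocounts, filters, scalings, a fit of 2 groups alone, a replicate block and each library left out. A fit of recovered fragments (voom) and a trend on length and GC were added after the data were seen. The subunits and all gene lists were chosen with earlier results of these data known.

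Genes named with values were fixed core subunits, paralog families, up to 3 called genes per complex and direction with the smallest p, and the 5 largest rises and falls of each comparison, and a few others (Ndufv2 and Ndufs8, and the genes of the ratios) were chosen after their values were seen. One subunit is counted but not reported here by name. Median chi-square values per gene between replicates were 2.6 to 23.9, so none was counted as a duplicate.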

Additional observations from a re-analysis of the deposited data

How the results depend on the processing

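Over the alternatives run, 814 of 1010 recomputed changes of named subunits kept direction and call, 195 lost the call and 1 reversed: Atp5b in BDL+LIG against sham, at -0.081 with median-of-ratios scaling (adjusted p = 0.725). Of 330 medians of complexes, 35 moved by more than the spread between replicates. In BDL against sham, the count of higher subunits went to 0 with no filter, median-of-ratios scaling, the length trend removed, and the length and GC trend removed. Of all genes, 2167, 1462, 1618 and 1681 were higher there. The count of lower ones was 9 with no filter, 27 with median-of-ratios scaling, 10 after rescaling to TPM, 46 with the length trend removed, 53 with length and GC removed and 10 with the 2 groups alone. In the same order, 629 of 21470 genes, 1466, 529 and 1544 of 10142, 1581 of 9887 and 600 of 10142 were lower. In BDL+LIG against BDL, the higher ones were 0 with a pseudocount of 0.1, no filter, median-of-ratios scaling and both trend removals, 3 after rescaling to TPM, 3 with a common total without mitochondrially encoded genes and 5 with the 2 groups alone, and the lower ones were 8 with quantile normalization, 1 with either trend removal and 27 with the 2 groups alone. Of all genes, 244 to 663 were higher in the settings with 0, and 1828, 1678 and 2828 in the next 3. Lower were 531 with quantile normalization, 254 and 231 with the trend removals and 605 with the 2 groups alone. In BDL+LIG against sham, the higher ones were 0 with median-of-ratios scaling, 4 after rescaling to TPM and 1 with either trend removal or the 2 groups alone. Of all genes, 2149, 5620, 2237, 2284 and 3683 were higher in these settings. The cause was not tested. Leaving out 1 library gave 0 to 1 higher and 4 to 63 lower in BDL against sham, 0 to 4 higher and 0 to 23 lower in BDL+LIG against BDL, and 2 to 4 higher and 32 to 66 lower in BDL+LIG against sham. Of all genes it gave 1430 to 3729 higher and 449 to 899 lower, 0 to 2620 and 0 to 517, and 3509 to 5676 and 699 to 1183. With the replicate number as a block the counts were 1 higher and 13 lower, 0 and 5, and 2 and 50, beside 2126 and 656, 602 and 140, and 4236 and 889 of all genes. Same-numbered libraries had correlations of their deviations of -0.13 to 0.28, so the numbers were not taken as pairing.

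Depth was within 1.17 times between libraries. The filter on low FPKM left 5 paralogs untested, and the 3 libraries per group limit every test.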
